A study of Mus musculus with 40 samples.

Results

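The chemokine ligands are small proteins, most of them secreted, that steer the movement of leukocytes. They were taken here by gene symbol, as every gene of the deposited table named Ccl or Cxcl with a number, together with Cx3cl1 and Xcl1. The rule gave 32 of 18024 genes, of which 18 are CC ligands, 12 are CXC ligands, 1 is the CX3C ligand and 1 is a C ligand. All 32 had a read in at least 1 library.

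Bulk RNA-seq libraries were made from 5 tissues (pancreas, kidney, ovary, heart and small intestine) of C57BL/6j mice at 60 days post-natal, 24 hours after acute activation of p53. Each tissue gave 3 libraries of the control group and 5 libraries of the group that lost Mdm2, the ubiquitin ligase that keeps p53 low. The control group, Tg, has the genotype Mdm2+/- Cag-CreERTg. The other group, FMTg, has the genotype Mdm2FM/- Cag-CreERTg. Both groups therefore carry 1 inactive copy of Mdm2 and a hormone-inducible Cre recombinase under the CAG promoter, which is active in most cell types, so Mdm2 was not lost from 1 chosen cell type. The agent and dose that switched on the recombinase are not given in the sources used here. The 40 libraries came from 13 mice. Each of 3 Tg mice supplied all 5 tissues, and the 25 FMTg libraries came from 10 mice, some of which supplied several tissues.

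Chemokines bind receptors on leukocytes that couple to G proteins, and cells move up the gradient. Inflammatory chemokines such as Cxcl1, Cxcl2 and Ccl2 are switched on by injury or infection, in large part through the transcription factor NF-kB, and draw in neutrophils and monocytes. Homeostatic chemokines such as Cxcl12, Cxcl13, Ccl19, Ccl25 and Ccl28 are made without inflammation and place cells in marrow, lymphoid tissue, gut and other mucosa.

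Of the 32 genes, 11 lie on chromosome 11 and 9 on chromosome 5. The promoters of the neighbouring genes Cxcl1, Cxcl2 and Cxcl3 on chromosome 5 are shown because these 3 genes had their highest Tg level in the same tissue, described below. The windows run from 250 bases before to 50 bases after the transcription start, from RefSeq on GRCm38.p6, at chr5:90890995-90891294 for Cxcl1, chr5:90903649-90903948 for Cxcl2 and chr5:90785851-90786150 for Cxcl3, all on the plus strand. Capitals mark every match to the NF-kB kB site, searched on both strands; overlapping matches were joined.
Cxcl1: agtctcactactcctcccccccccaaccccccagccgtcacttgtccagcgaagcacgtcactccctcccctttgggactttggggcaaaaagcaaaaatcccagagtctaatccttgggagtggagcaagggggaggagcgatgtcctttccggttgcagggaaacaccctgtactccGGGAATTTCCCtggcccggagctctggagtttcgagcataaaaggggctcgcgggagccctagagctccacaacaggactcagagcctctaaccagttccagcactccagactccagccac
Cxcl2: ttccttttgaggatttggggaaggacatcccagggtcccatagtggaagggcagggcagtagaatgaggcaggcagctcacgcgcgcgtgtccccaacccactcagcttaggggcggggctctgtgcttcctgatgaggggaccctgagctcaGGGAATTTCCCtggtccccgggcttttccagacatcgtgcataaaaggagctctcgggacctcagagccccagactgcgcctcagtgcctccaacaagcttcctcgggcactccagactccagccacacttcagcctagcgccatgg
Cxcl3: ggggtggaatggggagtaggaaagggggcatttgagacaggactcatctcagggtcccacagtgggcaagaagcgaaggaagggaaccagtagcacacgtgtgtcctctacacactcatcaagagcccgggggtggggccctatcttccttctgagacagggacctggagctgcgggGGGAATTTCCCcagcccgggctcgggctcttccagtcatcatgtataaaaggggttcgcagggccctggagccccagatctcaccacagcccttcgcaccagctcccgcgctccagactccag
All 3 windows hold the 11 bases GGGAATTTCCC, which contain 2 overlapping matches to the kB site. This run begins 71 bases before the start of Cxcl1, 97 bases before that of Cxcl2 and 73 bases before that of Cxcl3. It was found in no other chemokine window and in 9 of 13803 genes with a window (0.0652%). A window was at hand for 23 of the 32 chemokine genes. A kB match was present in 7 of these 23 (30.4%), against 6.22% of all genes with a window. The 7 were Ccl9, Ccl20, Ccl27a, Cxcl1, Cxcl2, Cxcl3 and Cxcl10. Other ligands were also higher in the Tg pancreas than in each other tissue. Of these, Ccl9 had a match, Ccl3 had none, and no window was at hand for Cxcl5, Ccl2, Ccl4 and Ccl7. The half-site that p53 binds was matched in 3 of 23 (13%), Ccl6, Cxcl9 and Cxcl13, against 8.66% of all genes. The letters TATAAA, searched on both strands, were found in 9 of 23 (39.1%), against 11.2% of all genes. A match describes the sequence only and shows no binding.

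Values below are reads divided by the authors' size factor of each library, called normalised reads, and were recovered from the deposited log2 values. Library totals ran from 7.155 to 29.03 M reads (M, mega). Mdm2 read higher in FMTg libraries than in every Tg library of its tissue, from 2005 to 4014 normalised reads against 864 to 1357 in the pancreas. Because the deleted stretch of the gene is not named in the labels, its total reads do not check the loss. Of 10 p53 target genes listed, all 10 were called higher in FMTg pancreas and kidney, 3 in the heart and 0 in the ovary and small intestine. All 10 had a higher FMTg mean in every tissue. Their median log2 difference was 2.05 in pancreas, 2.475 in kidney, 1.07 in ovary, 1.40 in heart and 1.73 in small intestine. No gene of 16486 tested in the ovary or of 16104 in the small intestine was called. A count of 0 there therefore does not show that these genes were unchanged. FMTg replicates 4 and 5 of each tissue come from mice with low identification numbers and had more genes without a read than the other libraries of the tissue, from 4087 to 6020 against 1559 to 2618 in the pancreas. Reads of 4 Y-linked genes summed to between 1583 and 4358 in FMTg replicates 4 and 5 of pancreas, kidney, heart and small intestine and in FMTg pancreas replicate 1, and to 62.1 or less in every other library. All 3 Tg mice gave an ovary, so genotype is partly confounded with sex in pancreas, kidney, heart and small intestine. Fits without FMTg replicates 4 and 5 still hold FMTg pancreas replicate 1, with 2534 such reads. Each tissue held its own marker genes, but some libraries also held those of another organ. The largest case was Tg ovary replicate 1, in which 5 markers of pancreatic acinar cells summed to 1.809e+06 normalised reads against 81.2 to 3.072e+05 in the other 7 ovary libraries. In these whole-tissue samples, fewer cells of a type and less RNA per cell cannot be told apart.

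The first question was where each ligand is expressed when p53 is not activated. Compared per kilobase of exon, the family was led in the Tg pancreas by Ccl6 (1184 ± 475 normalised reads per kilobase, SD, n = 3), Ccl9 (398 ± 148) and Ccl2 (327 ± 120). Ccl6 and Ccl9 are ligands of Ccr1 made by macrophages and other myeloid cells, and Ccl2 attracts monocytes through Ccr2. The Tg ovary was led by Ccl6 (492 ± 213), the monocyte attractant Ccl8 (271 ± 94.7) and Ccl9 (171 ± 90.3). The Tg kidney had a different order, with Cx3cl1 (371 ± 30.9), Cxcl12 (272 ± 22.3) and Ccl28 (261 ± 105) at the top. In the Tg heart Cxcl12 (451 ± 28.9) and Ccl6 (429 ± 130) were within their spread of each other and Ccl9 followed (141 ± 56.3). The Tg small intestine was led by Ccl6 (989 ± 160), Ccl25 (427 ± 152) and Cx3cl1 (306 ± 42.8). With the length of the longest coding transcript in place of all exons, an alternative chosen after seeing the data, Ccl25 reached 3005 normalised reads per kilobase in the small intestine and moved from second to first place. It also moved to second place in the ovary (279.6, with Ccl8 at 271) and ahead of Ccl9 in the heart (201 and 142.5), so Ccl9 left the leading 3 genes in both. In the pancreas Ccl2 (458) then stood above Ccl9 (403).

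**Figure D1:**
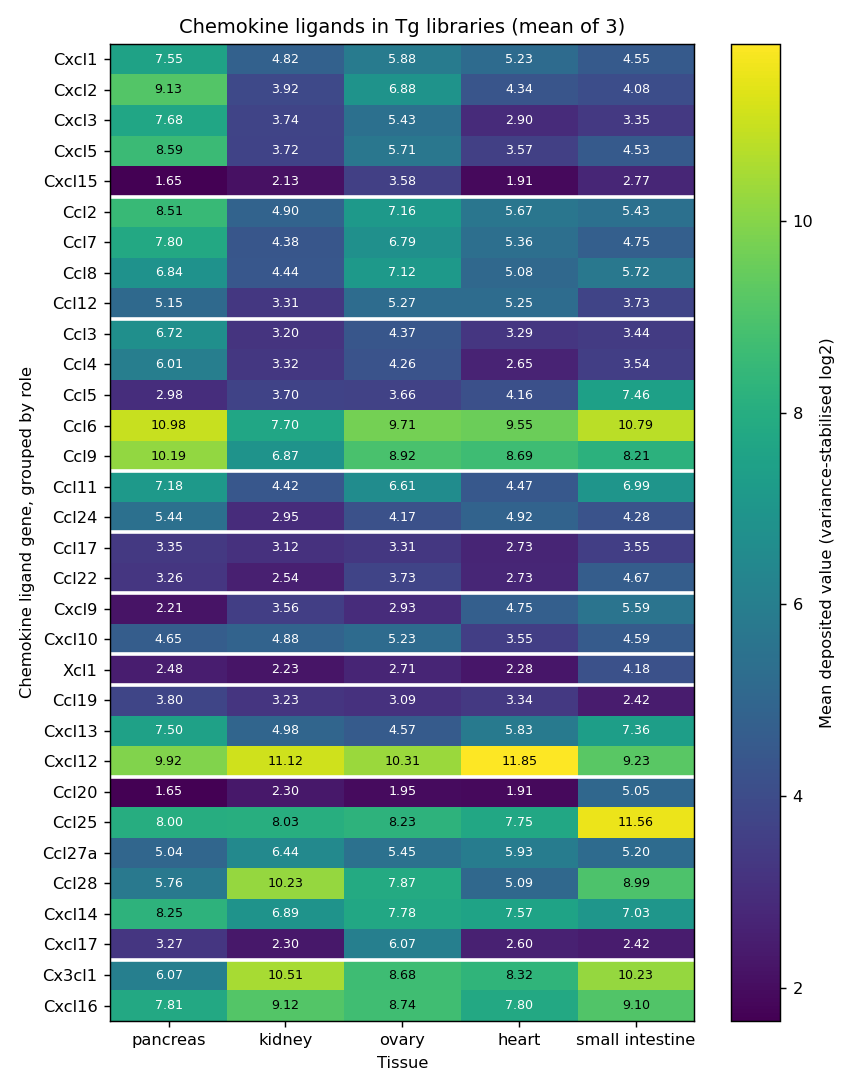
Mean deposited value (variance-stabilised log2, colour and number) of the 32 chemokine ligand genes (rows, grouped by role with white lines between groups) in 3 Tg libraries of each of 5 tissues (columns). The lowest value a gene can have is 1.65, and the highest means are those of Cxcl12 in the heart and kidney, Ccl25 and Ccl6 in the small intestine and Ccl6 in the pancreas.

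Each tissue was then compared with the mean of the other 4 over the 15 Tg libraries, and a gene was called at an adjusted p below 0.05 and a difference of at least 1 on the log2 scale. Of 30 chemokine genes tested, 14 were called higher and 4 lower in the pancreas, where 9.27% of all genes tested were called higher and 19.5% lower. In the kidney 3 were called higher and 12 lower, against 12.4% and 16.4% of all genes. In the ovary 6 were called higher and 2 lower, against 15.2% and 7.05%. In the heart 2 were called higher and 9 lower, against 13.7% and 15.2%. In the small intestine 9 were called higher and 7 lower, against 16.1% and 10.8%. The median difference of the 30 genes was 0.86 in the pancreas and -1.03 in the kidney, beside -0.23 and -0.10 for all genes tested. Ccl20 and Cxcl15 were too low on average to be tested.
When libraries were scaled by their total reads in place of size factors, the median of all genes moved to -0.93 in the pancreas, 0.14 in the kidney and 0.50 in the ovary. The calls then were 9 higher and 7 lower for pancreas, 5 and 8 for kidney, 7 and 0 for ovary, 1 and 6 for heart, and 8 and 4 for small intestine. The 9 that remained higher in the pancreas were Cxcl1, Cxcl2, Cxcl3, Cxcl5, Ccl2, Ccl3, Ccl4, Ccl7 and Ccl9, and the same 9 were also higher there than in each of the other 4 tissues separately.
Over the 25 FMTg libraries, in which 27 chemokine genes were tested, the calls were 8 higher and 6 lower for pancreas, 2 and 11 for kidney, 2 and 0 for ovary, 6 and 4 for heart, and 8 and 4 for small intestine. The shares of all genes called with total reads as the scale and over the FMTg libraries are not reported here. The counts of those fits are therefore not set against a background, and the shares of the main fit do not carry over to them.

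Cxcl1, Cxcl2, Cxcl3, Cxcl5 and Cxcl15 are ligands that recruit neutrophils through Cxcr2, and the first 4 were highest in the pancreas. Cxcl2 had 745, 446 and 507 normalised reads in the 3 Tg pancreas libraries. It had 285, 134 and 34.3 in the Tg ovary libraries, 9.46 to 23.3 in the heart, 6.17 to 16.0 in the small intestine and 5.55 to 21.2 in the kidney. No Tg library of another tissue reached the lowest Tg pancreas value. The Tg pancreas exceeded the mean of the other tissues by 4.32 ± 0.48 (log2, SE) for Cxcl2, 4.21 ± 0.43 for Cxcl5, 3.82 ± 0.36 for Cxcl3 and 2.43 ± 0.33 for Cxcl1, with adjusted p from 3.3e-06 to 5.1e-05. The sum of 6 neutrophil markers ran from 3092 to 5735 normalised reads in the Tg pancreas and from 1849 to 5807 in the Tg heart. It was 2542 or less in the other Tg libraries. The heart overlapped the pancreas in these markers but not in Cxcl2, and the part of the markers in the chemokine levels was not tested. Cxcl15, a ligand best known from lung, had at most 15.2 normalised reads in any library and none in all 8 pancreas libraries. With the 25 FMTg libraries in place of the Tg libraries, the pancreas differences were 2.18 for Cxcl2, 2.604 for Cxcl5 and 2.31 for Cxcl3, all still called, and 1.03 for Cxcl1 (adjusted p = 0.211), which was not. With total reads as the scale the difference of Cxcl3 was 2.28.

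In the ovary Cxcl2 and Cxcl3 were also called higher than the mean of the other tissues, by 1.52 ± 0.48 and 1.01 ± 0.36 (adjusted p = 0.0179 and 0.0326). Tg ovary replicate 1, the library with pancreatic acinar markers, had the highest ovary value of 10 chemokine genes, among them Cxcl2 (285), Cxcl3 (79.1), Cxcl5 (146), Ccl2 (216) and Ccl3 (36.4). Without that mouse the ovary differences were 0.94 for Cxcl2 (adjusted p = 0.103) and 0.56 for Cxcl3 (adjusted p = 0.211), and neither call held. Cxcl2 was also not called without the mouse of replicate 2 (1.41, adjusted p = 0.156), and Cxcl3 not without replicate 2 or replicate 3 (1.14 and 1.32, adjusted p = 0.105 and 0.0685). Over the FMTg libraries the ovary differences were 0.38 and 0.03 (adjusted p = 0.754 and 0.976).

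**Figure D2:**
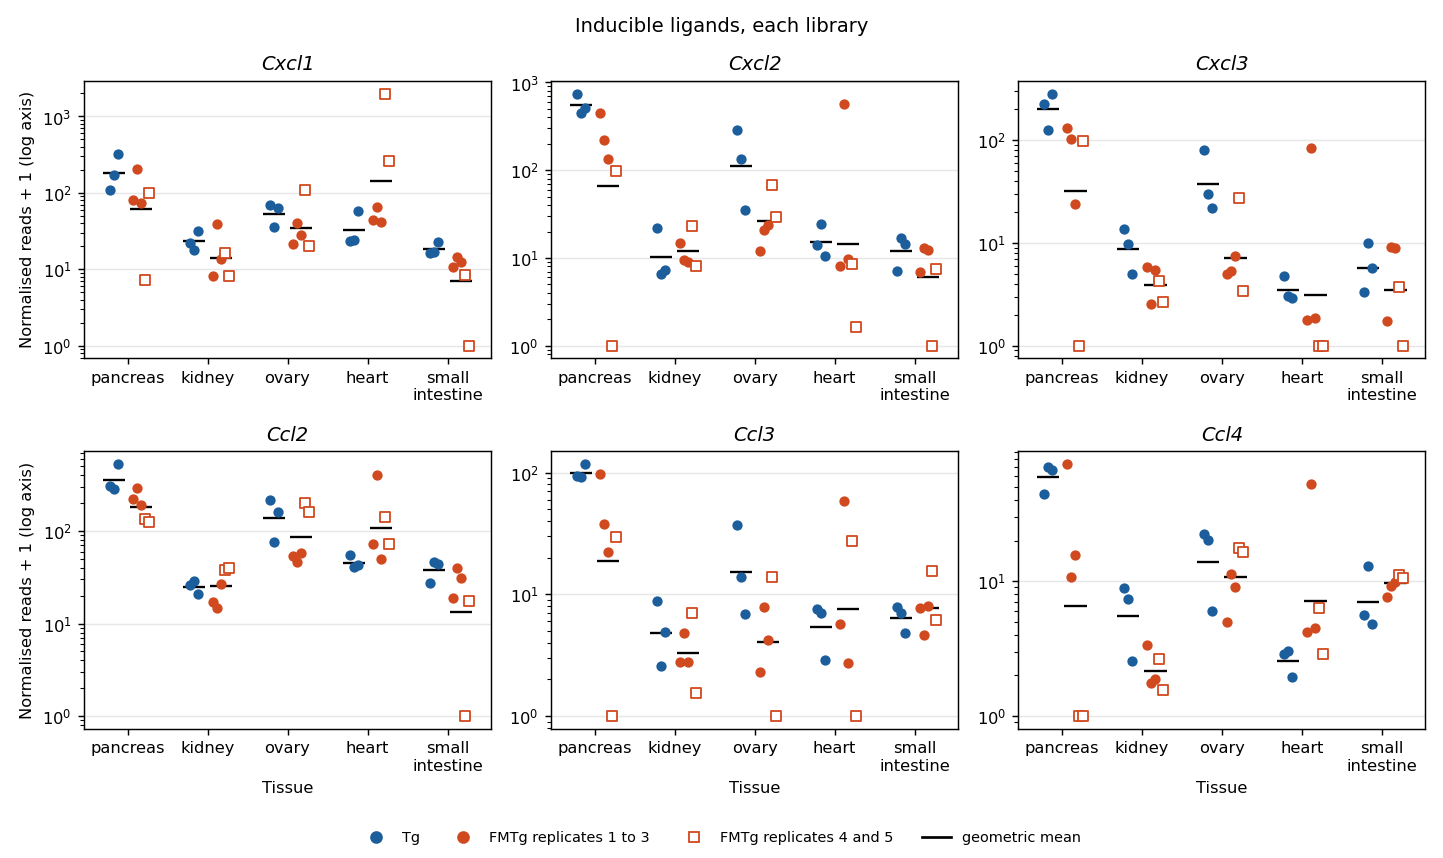
Normalised reads plus 1 (log axis) of 6 inducible chemokine ligands in each of the 40 libraries, by tissue; circles are Tg (blue) and FMTg replicates 1 to 3 (orange), open squares are FMTg replicates 4 and 5, and black lines are geometric means. The Tg pancreas points are high for all 6 genes, Tg ovary replicate 1 reaches 285 for Cxcl2, and single FMTg heart libraries reach 562 for Cxcl2 and 1989 for Cxcl1.

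Ccl2, Ccl7, Ccl8 and Ccl12 are ligands of Ccr2 and related receptors that attract monocytes, and their genes lie side by side with Ccl11 on chromosome 11. Ccl2 had 304, 284 and 530 normalised reads in the Tg pancreas, 216, 74.4 and 158 in the ovary, 25.1, 27.7 and 19.7 in the kidney, 26.2, 45 and 42.9 in the small intestine and 54.4, 39.5 and 41.6 in the heart. The pancreas values lay above those of every other tissue, and the kidney values overlapped those of the small intestine. Ccl2 was higher in the pancreas than in the mean of the other tissues by 2.72 ± 0.28 (adjusted p = 6.3e-06), and Ccl7 by 2.48 ± 0.26 (adjusted p = 7.6e-06). The difference of Ccl2 was 1.64 with total reads as the scale, and Ccl7 was not called over the FMTg libraries (0.98, adjusted p = 0.178). In the ovary Ccl8 (1.60 ± 0.45, adjusted p = 0.00938), Ccl7 (1.21 ± 0.26, adjusted p = 0.00207) and Ccl2 (1.03 ± 0.28, adjusted p = 0.00808) were called higher. Without the mouse of replicate 1 the ovary differences of Ccl2 and Ccl7 were 0.67 (adjusted p = 0.103) and 0.89 (adjusted p = 0.0288), so the first missed both thresholds and the second missed the log2 threshold. Without replicate 3, Ccl2 (0.99, adjusted p = 0.0982) and Ccl8 (1.60, adjusted p = 0.130) were not called. Over the FMTg libraries Ccl2, Ccl7 and Ccl8 were not called in the ovary (adjusted p = 0.318, 0.256 and 0.406).

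Ccl3, Ccl4, Ccl5, Ccl6 and Ccl9 attract monocytes, macrophages and T cells. Ccl3 had 92.3, 90.3 and 117 normalised reads in the Tg pancreas and 36.4 or less in every other Tg library, and Ccl4 had 43.1, 69.6 and 65.4 against 21.4 or less. The pancreas differences were 3.14 ± 0.35 for Ccl3 and 2.56 ± 0.34 for Ccl4 (adjusted p = 1.1e-05 and 3.8e-05). Over the FMTg libraries they were 1.41 and 0.09 (adjusted p = 0.0553 and 0.893), so neither was called there. That fit held FMTg pancreas replicate 4, with 0 reads of both genes, and replicate 5, with 0 reads of Ccl4. With total reads as the scale the Tg pancreas differences were 1.67 and 1.14. Ccl5, made chiefly by T and NK cells, had another tissue of high level. It had 99.4, 276 and 178 normalised reads in the Tg small intestine and 18.8 or less in every Tg library of another tissue. The difference was 3.84 ± 0.44 (adjusted p = 1.3e-05), and 6 of 7 listed T cell markers were in the table and summed to between 548 and 1416 in those libraries against 120 or less in the other Tg libraries. The part of T cells in the level of Ccl5 was not tested. Ccl6 was lowest in the kidney, where it differed from the mean of the other tissues by -2.56 on the log2 scale (adjusted p = 9.0e-06).

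Ccl11 and Ccl24 attract eosinophils through Ccr3, and Ccl17 and Ccl22 attract T cells through Ccr4. Ccl11 had 125, 150 and 143 normalised reads in the Tg pancreas, 97.9, 105 and 169.5 in the small intestine and 123, 70.4 and 88.7 in the ovary, which overlap. It had 31.9 or less in every Tg heart and kidney library. Ccl22 was called higher in the small intestine (11.6, 34.0 and 18.1 normalised reads, 1.61 ± 0.44, adjusted p = 0.00712), but not without the mouse of replicate 2 or replicate 3 (adjusted p = 0.0802 and 0.0636), nor with total reads as the scale (0.93). Ccl17 had 10.5 normalised reads or less in every Tg library.

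Cxcl9 and Cxcl10 attract activated T cells through Cxcr3 and are induced by interferon. Cxcl9 had 50.9, 44.0 and 33.3 normalised reads in the Tg small intestine and 19.7, 26.3 and 18.0 in the Tg heart, against 13.4 or less in every other Tg library. It was higher in the small intestine than in the mean of the other tissues by 2.23 ± 0.36 (adjusted p = 0.000183), and by 1.45 with total reads as the scale. The heart difference of 1.18 ± 0.36 (adjusted p = 0.0127) was not called without the mouse of replicate 1 or replicate 2 (adjusted p = 0.0655 and 0.174), nor with total reads as the scale (0.49), nor over the FMTg libraries (0.88, adjusted p = 0.175). Xcl1, the ligand of Xcr1 on cross-presenting dendritic cells, had 10.02, 14 and 13.3 normalised reads in the Tg small intestine and 5.02 or less in every other Tg library. Its difference was 1.76 ± 0.35 (adjusted p = 0.000851), and 0.80, no longer called, with total reads as the scale. Xcl1 was too low to be tested over the FMTg libraries.

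Cxcl12 binds Cxcr4 and retains blood-forming cells in their niche, and Cxcl13 and Ccl19 guide B cells and T cells in lymphoid tissue. Cxcl12 had 3857, 3783 and 3417 normalised reads in the Tg heart, 2103, 2434 and 2136 in the kidney, 1118, 983 and 1842 in the ovary, 849.5, 841 and 1240 in the pancreas and 1089, 327 and 591 in the small intestine. Heart and kidney stood above the other 3 tissues, whose ranges overlap. The heart exceeded the mean of the others by 1.70 ± 0.27 (adjusted p = 0.000148), and the small intestine differed by -1.57 on the log2 scale (adjusted p = 0.000323). In Tg small intestine replicate 1, which had 1089, 5 heart markers summed to 4.638e+04 normalised reads, against 124 and 6322 in replicates 2 and 3. The part of these markers in its Cxcl12 value was not tested. Cxcl13 varied widely between mice, from 53.4 to 402 in the Tg pancreas and from 13.2 to 182 in the Tg heart. Ccl19 had 16.4 normalised reads or less in every Tg library.

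Ccl20, Ccl25, Ccl27a, Ccl28, Cxcl14 and Cxcl17 are made mainly by epithelium of skin, gut and other mucosa. Ccl25, which brings Ccr9-bearing T cells to the small intestine, had 1871, 3894 and 3772 normalised reads there and 177 to 327 in every Tg library of the other tissues. The difference was 3.56 ± 0.19 (adjusted p = 6.3e-08). Ccl25 overlaps Elavl1 on the opposite strand, and since the strand setting is not given, reads of the pair may be counted together. Ccl20 followed the same tissue, with 20.8, 37.0 and 25.7 normalised reads in the Tg small intestine and 2.38 or less in every other Tg library. Cxcl17, a mucosal ligand, was instead highest in the Tg ovary, with 64.0, 80.0 and 44.3 normalised reads against 22.6 or less elsewhere (3.43 ± 0.57, adjusted p = 0.000349).

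Ccl28, which attracts plasma cells and T cells to mucosal surfaces through Ccr10 and Ccr3, had its highest level in the kidney. The Tg kidney libraries had 1791, 1218 and 781 normalised reads, the Tg small intestine 693, 476 and 380, the Tg ovary 285, 234 and 177, the Tg pancreas 117, 12.9 and 63.1, and the Tg heart 81.6, 10.1 and 22.7. The kidney values lay above those of every other tissue, and pancreas and heart overlapped. The kidney difference was 3.30 ± 0.53 (adjusted p = 0.000205) and that of the small intestine 1.75 ± 0.53 (adjusted p = 0.0134). The latter was not called without the mouse of replicate 2 or replicate 3 (adjusted p = 0.0575 and 0.104). In Tg small intestine replicate 1, which had 693, 5 kidney tubule markers summed to 4.739e+04 normalised reads, against 208 and 8697 in replicates 2 and 3. The part of these markers in its Ccl28 value was not tested. Ccl27a, a skin ligand that shares the receptor Ccr10, was called higher in the kidney by 1.04 ± 0.20 (adjusted p = 0.000767), but not without the mouse of replicate 2 (0.98), nor over the FMTg libraries (1.10, adjusted p = 0.0645). It overlaps Il11ra1 on the opposite strand, with the same limit as Ccl25.

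Cx3cl1 and Cxcl16 are made as membrane-anchored proteins that can be shed. Cx3cl1, the ligand of Cx3cr1 on monocytes and tissue macrophages, had 1336, 1457 and 1579 normalised reads in the Tg kidney and 1061, 1389 and 1162 in the Tg small intestine, which overlap. It had 329 to 473 in the ovary, 289 to 351 in the heart and 42.0 to 103 in the pancreas. The difference was 2.19 ± 0.19 in the kidney (adjusted p = 1.8e-06) and 1.84 ± 0.19 in the small intestine (adjusted p = 6.9e-06), and the pancreas differed by -3.37 on the log2 scale (adjusted p = 1.7e-07), and by -1.998 over the FMTg libraries. Cxcl16 had 170 to 631 normalised reads in every Tg library and was not called in any tissue over these libraries. It missed only the log2 threshold in pancreas (-0.88), kidney (0.76), heart (-0.89) and small intestine (0.73), with adjusted p from 0.00034 to 0.0016. Over the FMTg libraries it was called lower in the pancreas (-1.95, adjusted p = 0.00118). The FMTg pancreas libraries had 154, 238, 338, 6.16 and 249 normalised reads of Cxcl16, and the low value was replicate 4, with 1 read. The part of that library in the call was not tested.

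**Figure D3:**
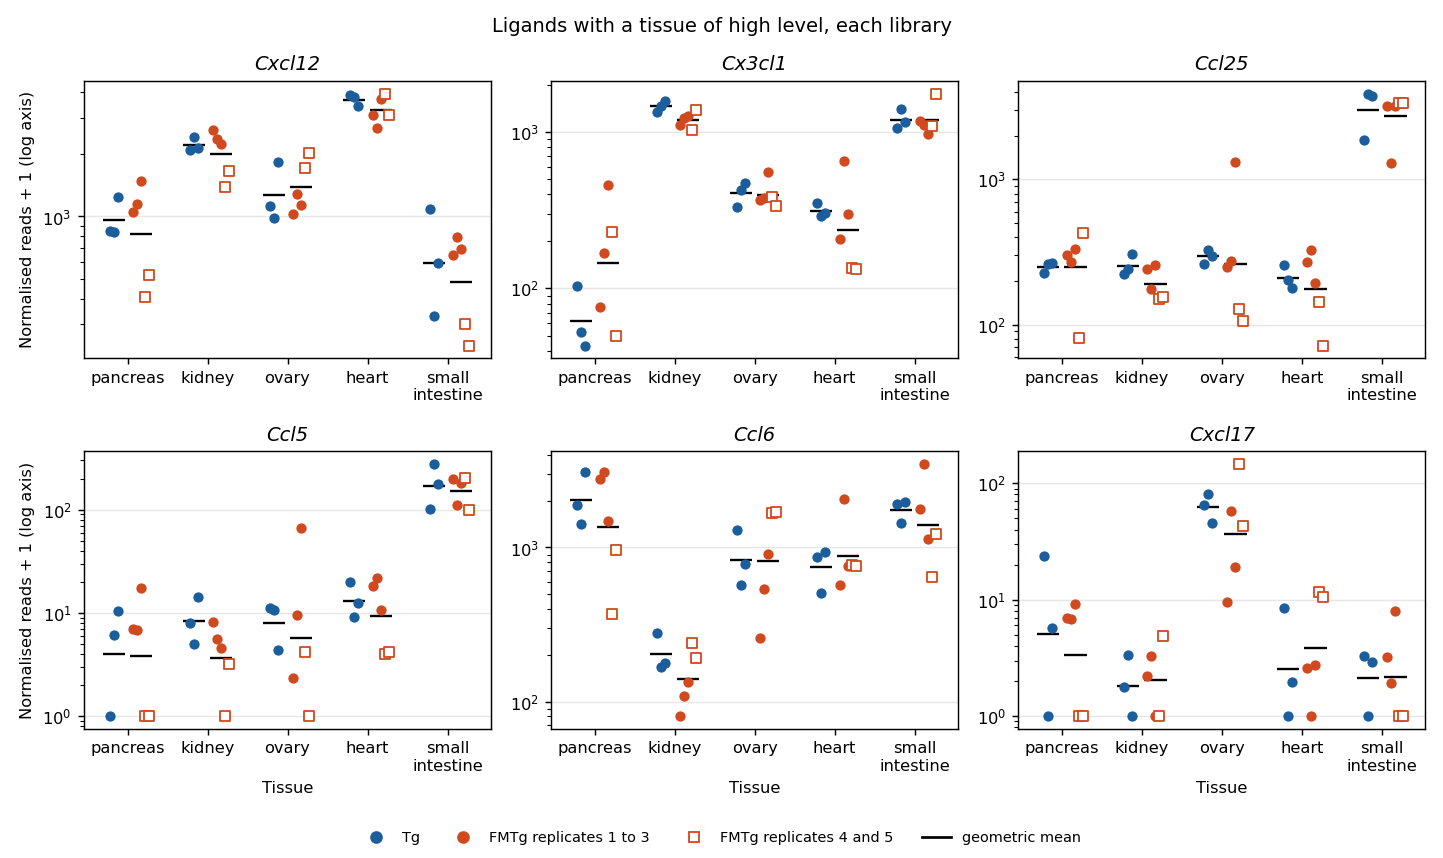
Normalised reads plus 1 (log axis) of 6 chemokine ligands in each of the 40 libraries, by tissue; symbols are as in the plot of inducible ligands. Cxcl12 is highest in the heart, Cx3cl1 in kidney and small intestine, Ccl25 and Ccl5 in the small intestine and Cxcl17 in the ovary, in Tg and FMTg libraries alike, and FMTg ovary replicate 3 stands out with 1311 for Ccl25.

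In 2 FMTg libraries the chemokine levels moved with the markers of another organ. FMTg ovary replicate 3 had 1311 normalised reads of Ccl25, 65.0 of Ccl5 and 10.6 of Xcl1, against 327 or less, 10.05 or less and 5.02 or less in the other 7 ovary libraries. In that library 5 markers of small intestine epithelium summed to 36730, against 238 to 3221 in the others. FMTg pancreas replicate 3 had 457.5 of Cx3cl1 and 160 of Ccl28, against 228 or less and 117 or less in the other pancreas libraries, and 5 markers of kidney tubule summed to 1.195e+05 against 111 to 1293. Their part in these values was not tested.

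The second question was which ligands differ between FMTg and Tg in each tissue. Ccl28 in the kidney was the only chemokine gene called, at an adjusted p below 0.05. It was 1 of 26 tested in the kidney, where 0.616% of all genes tested were called. The called count was 0 of 27 in the pancreas, where 0.446% of all genes were called, 0 of 31 in the ovary (0.00%), 0 of 29 in the heart (0.0190%) and 0 of 30 in the small intestine (0.00%). At an unadjusted p below 0.05 the kidney held 6 chemokine genes, the ovary 3, the pancreas 2, the heart 1 and the small intestine 0. Among all genes tested, the share under that p was 8.32% for kidney, 6.36% for ovary, 8.42% for pancreas, 6.33% for heart and 2.41% for small intestine.

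The FMTg kidney libraries had 601, 392, 402, 302 and 385 normalised reads of Ccl28, against 1791, 1218 and 781 in the Tg kidney libraries. Ccl28 lies on chromosome 13 from 119623819 to 119654359, plus strand, GRCm38. All 5 FMTg values lay below all 3 Tg values. Ccl28 fell by 1.54 ± 0.27 on the log2 scale (0.343 of the Tg level, adjusted p = 0.0458), and the exact permutation test gave p = 0.0179, the smallest that 3 against 5 libraries allow. The call was lost when the first or second Tg library was left out (adjusted p = 0.198 and 0.250) and when FMTg library 2, 3, 4 or 5 was left out (adjusted p = 0.0906, 0.109, 0.0968 and 0.127). It was also lost with voom weights on the recovered reads (adjusted p = 0.0597), with no filter on low values (0.164), with no mean-variance trend (0.0938) and with total reads as the scale (0.0830). Without FMTg replicates 4 and 5 together the difference was -1.38 (adjusted p = 0.144), and the same libraries remained when only mice with an ovary library were kept. In the kidney the summed neutrophil markers were also lower in every FMTg library (160 to 327) than in every Tg library (341 to 884). The same held for dendritic cell markers (213 to 498 against 517 to 565). Sums of T cell, B cell, NK cell and macrophage markers overlapped between the groups. The 5 markers of kidney tubule summed to 2.896e+05 to 6.063e+05 in FMTg and 2.906e+05 to 3.617e+05 in Tg libraries. FMTg kidney replicates 4 and 5 also held Y-linked reads (3763 and 2739), against 3.15 or less in the Tg kidney libraries. The parts of cell composition and of sex in the difference were not tested.

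**Figure D4:**
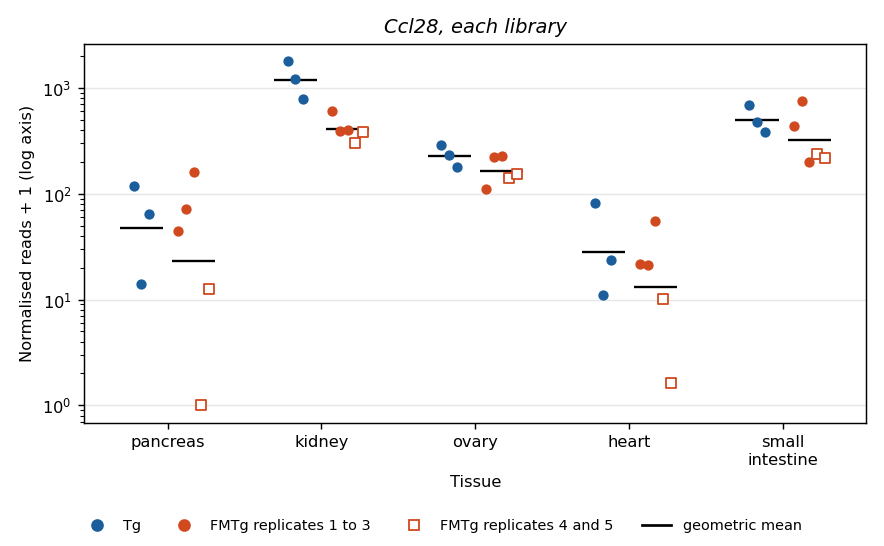
Normalised reads plus 1 (log axis) of Ccl28 in each of the 40 libraries, by tissue; circles are Tg (blue) and FMTg replicates 1 to 3 (orange), open squares are FMTg replicates 4 and 5, and black lines are geometric means. In the kidney the 5 FMTg libraries (302 to 601) sit below the 3 Tg libraries (781 to 1791), and in the other 4 tissues the groups overlap.

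Ccl28 had a lower FMTg mean in each of the other tissues too, with differences of -0.79 in the heart, -0.75 in the pancreas, -0.64 in the small intestine and -0.46 in the ovary, none called and all with overlapping groups. With FMTg replicates 4 and 5 left out the difference was 0.67 in the pancreas and 0.02 in the heart, so the direction turned there, and -0.31 in the small intestine and -0.35 in the ovary. The tissues share mice, so these are not independent. Its mean difference over the 5 tissues, in 1 model of all 40 libraries, was -0.97 ± 0.47 (adjusted p = 0.405). No chemokine gene of 30 tested was called on the mean over tissues, where 0.729% of all genes were called, and 4 of 30 had an unadjusted p below 0.05 (Ccl17, Ccl19, Cxcl5 and Ccl28), beside 12.1% of all genes. No chemokine gene was called as differing between tissues in its genotype effect, where 0.192% of all genes were called, and the smallest adjusted p was 0.213, for Ccl4.

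Complete separation of the groups was seen for few chemokine genes. All FMTg libraries lay below all Tg libraries for 3 genes in the kidney (Ccl28, Ccl19 and Ccl7), where this held for 4.56% of all genes tested, and all lay above for none of the 26 (4.17% of all genes). Ccl19 had 3.17 to 5.51 normalised reads in Tg and 2.99 or less in FMTg kidney libraries, with 5 reads in replicate 1 of both groups. Ccl7 had 13.5 to 16.5 in Tg and 2.39 to 11.6 in FMTg kidney libraries. In the pancreas neither separation was seen for any of 27 (5.05% below and 4.68% above among all genes), and in the ovary for none of 31 (2.38% and 3.43%). In the heart none lay below (3.49%) and 1 lay above, Cxcl10 (3.42%), with 5.06 to 8.51 normalised reads in Tg and 8.69 to 17.8 in FMTg libraries. In the small intestine Cxcl1 lay below (1.19%) and none lay above (1.69%). No gene was separated in the same direction in 3 tissues.

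In the pancreas 24 of 27 tested chemokine genes had a lower FMTg mean and the median difference was -0.63, beside -0.05 over all genes. The smallest p belonged to Ccl2, which had 304, 284 and 530 normalised reads in Tg and 221, 288, 189.5, 135.5 and 123 in FMTg libraries (-0.95 ± 0.36, adjusted p = 0.4932). The groups overlapped in 1 library. Ccl4 had 43.1, 69.6 and 65.4 in Tg and 72.9, 9.67, 14.7, 0 and 0 in FMTg libraries (-2.43 ± 1.07, adjusted p = 0.583). Ccl3 had 92.3, 90.3 and 117 against 96.6, 36.7, 21.2, 0 and 28.6 (-1.99 ± 0.99, adjusted p = 0.657). Cxcl2 had 745, 446 and 507 against 453, 222, 132, 0 and 97.4 (-2.70 ± 1.35, adjusted p = 0.660). In Ccl3, Ccl4 and Cxcl2 FMTg replicate 1 lay above the lowest Tg library, and the other 4 FMTg libraries lay below all 3 Tg libraries. FMTg pancreas replicate 4, the shallowest library, had no read of 21 of the 32 chemokine genes and the lowest value of 18 of the 27 tested. Without FMTg replicates 4 and 5, 11 of the 27 had a lower and 16 a higher mean, and the median was 0.18, so the direction of the pancreas median turned. Without replicate 4 alone it was -0.15. Without both, the differences were -0.63 for Ccl2, -1.14 for Ccl4, -1.10 for Ccl3 and -1.19 for Cxcl2. The 6 neutrophil markers had a median difference of -2.23, with 0 of 6 called, and sums of 3092 to 5735 in Tg and 203 to 4186 in FMTg libraries. FMTg replicates 1 to 3 had sums of 4186, 3037 and 2015, and replicates 4 and 5 had 203 and 596. The part of these markers in the chemokine values was not tested.

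In the kidney 18 of 26 had a lower FMTg mean, with a median of -0.33 beside -0.05 for all genes, and -0.52 without Tg replicate 2. After Ccl28 the smallest p belonged to Cxcl13 (31.4, 13.5 and 37.8 against 2.99, 12.9, 7.13, 16.3 and 11.0 normalised reads, -1.10 ± 0.39, adjusted p = 0.547). Cxcl5 (-1.17 ± 0.43, adjusted p = 0.561) and Ccl4 (-0.81 ± 0.32, adjusted p = 0.564) followed, at 11.0 and 7.85 normalised reads or less in every kidney library, and with total reads as the scale they differed by -0.51 and -0.36. These 3 genes overlapped between groups.

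In the ovary 21 of 31 had a lower FMTg mean, with a median of -0.29 beside -0.02. The median was -0.61 without FMTg replicates 4 and 5, -0.16 without Tg replicate 3 and -0.15 without FMTg replicate 1, and with total reads as the scale it was -0.18, with 17 lower and 14 higher. Cxcl3 had 79.1, 28.8 and 20.9 normalised reads in Tg and 3.94, 4.30, 6.50, 26.7 and 2.39 in FMTg libraries (-1.84 ± 0.58, adjusted p = 0.548), and the groups overlapped through FMTg replicate 4. Cxcl2 had 285, 134 and 34.3 against 11.2, 19.8, 22.7, 67.5 and 28.7 (-1.90 ± 0.66, adjusted p = 0.635). Ccl8 had 187, 90.4 and 137 against 42.7, 57.7, 109, 79.5 and 63.3 (-0.92 ± 0.34, adjusted p = 0.683). Ccl7 had 149, 72.8 and 103 against 21.7, 31.0, 53.6, 93.3 and 84.8 (-0.98 ± 0.47, adjusted p = 0.808). All 4 genes had their highest value in Tg ovary replicate 1, which holds pancreatic acinar markers. Without that library the difference of Cxcl2 was -1.25, and without FMTg replicates 4 and 5 that of Ccl7 was -1.49. FMTg ovary replicates 4 and 5 were high for another set of genes, with 1804 and 1660 normalised reads of Ccl9, 1001 and 800 of Cxcl14 and 316.5 and 238 of Ccl11, against 834, 304.6 and 123 or less in the other 6 ovary libraries. The 4 adipocyte markers summed to 24030 and 30010 in those FMTg libraries and to 1016 to 5203 in the other 6. Macrophage markers summed to 6426 and 8919 against 2778 to 5028. Blood endothelium markers summed to 5695 and 7964 against 2760 to 3875, and lymphatic endothelium markers to 3664 and 3170 against 1259 to 1875. The part of these markers in the chemokine values was not tested.

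The heart went the other way, with a higher FMTg mean for 23 of 29 genes and a median of 0.40 beside -0.01 over all genes. Without FMTg replicates 4 and 5 the median was 0.52 and 25 were higher. Cxcl16 had 286, 182 and 195 normalised reads in Tg and 273, 781, 288, 436 and 429 in FMTg libraries (0.90 ± 0.34, adjusted p = 0.760), and the groups overlapped in 1 FMTg library. Ccl9 had 406, 269 and 610 against 336, 1218, 504, 1482 and 1143 (0.99 ± 0.51), Ccl2 had 54.4, 39.5 and 41.6 against 71.2, 403, 48.7, 140.1 and 70.7 (1.17 ± 0.61), and Ccl22 had 1.87, 3.04 and 0.946 against 8.71, 4.64, 1.74, 9.09 and 11.4 (0.83 ± 0.44), each with an adjusted p of 0.760. Without FMTg replicates 4 and 5 Ccl9 differed by 0.54 and Ccl22 by 0.55, and without FMTg replicate 2 Ccl2 differed by 0.71. The 7 macrophage markers were higher on average in FMTg heart, with a median difference of 1.11, 0 of 7 called, and sums of 7427 to 17330 against 4451 to 6687 that do not overlap; their part in the chemokine values was not tested.

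FMTg heart replicate 2 stood apart. It had the highest value of 15 of the 29 genes tested, and 3 of them exceeded the next library at least 4-fold. Cxcl2 had 562 normalised reads there and 23.3 or less in the other 7 heart libraries, Cxcl3 had 82.8 against 3.75 or less, Ccl4 had 51.1 against 5.30 or less, and Ccl8 had 262 against 72.2 or less. Neutrophil markers summed to 16540 in that library and to 355 to 5807 in the other 7 heart libraries, fibroblast markers to 52360 against 15490 to 35070, and cardiac muscle markers to 1.819e+05 against 3.773e+05 to 7.098e+05. FMTg heart replicate 4 had 1989 normalised reads of Cxcl1, against 261 in FMTg replicate 5 and 63.5 or less in the other 6, while Cxcl2 had 7.57 and Cxcl3 had 0 there. These values belong to single libraries, and the tested difference of Cxcl1 in the heart was 2.02 ± 1.19 (adjusted p = 0.760), and 0.52 without FMTg replicates 4 and 5.

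In the small intestine 20 of 30 had a lower FMTg mean, with a median of -0.19 beside -0.05. It was -0.08 without FMTg replicates 4 and 5, -0.11 without replicate 4 alone and -0.32 without FMTg replicate 2. Cxcl13 had 93.3, 270 and 156 normalised reads in Tg and 117, 100.4, 81.2, 34.0 and 9.63 in FMTg libraries (-1.49 ± 0.70, adjusted p = 0.990). Cxcl1 had 15.4, 16.0 and 21.9 against 9.65, 13.7, 11.5, 7.35 and 0 (-1.02 ± 0.60), Ccl11 had 97.9, 105 and 169.5 against 160, 141, 152, 209 and 146 (0.39 ± 0.23), and Ccl24 had 14.6, 14 and 12.4 against 21.5, 16.4, 13.2, 45.9 and 34.7 (0.63 ± 0.38), each with an adjusted p of 0.990. Without FMTg replicates 4 and 5 the differences were -0.65 for Cxcl13, -0.44 for Cxcl1 and 0.22 for Ccl24, and without replicate 5 alone that of Cxcl1 was -0.55. With Tg replicate 1 or 3 left out, Ccl11 differed by 0.25 or 0.63. Markers of B cells, which Cxcl13 attracts, had a median difference of -1.95 in the small intestine, with 0 of 5 called and sums of 410 to 1359 in Tg and 238 to 487 in FMTg libraries. Their part in the Cxcl13 values was not tested.

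**Figure D5:**
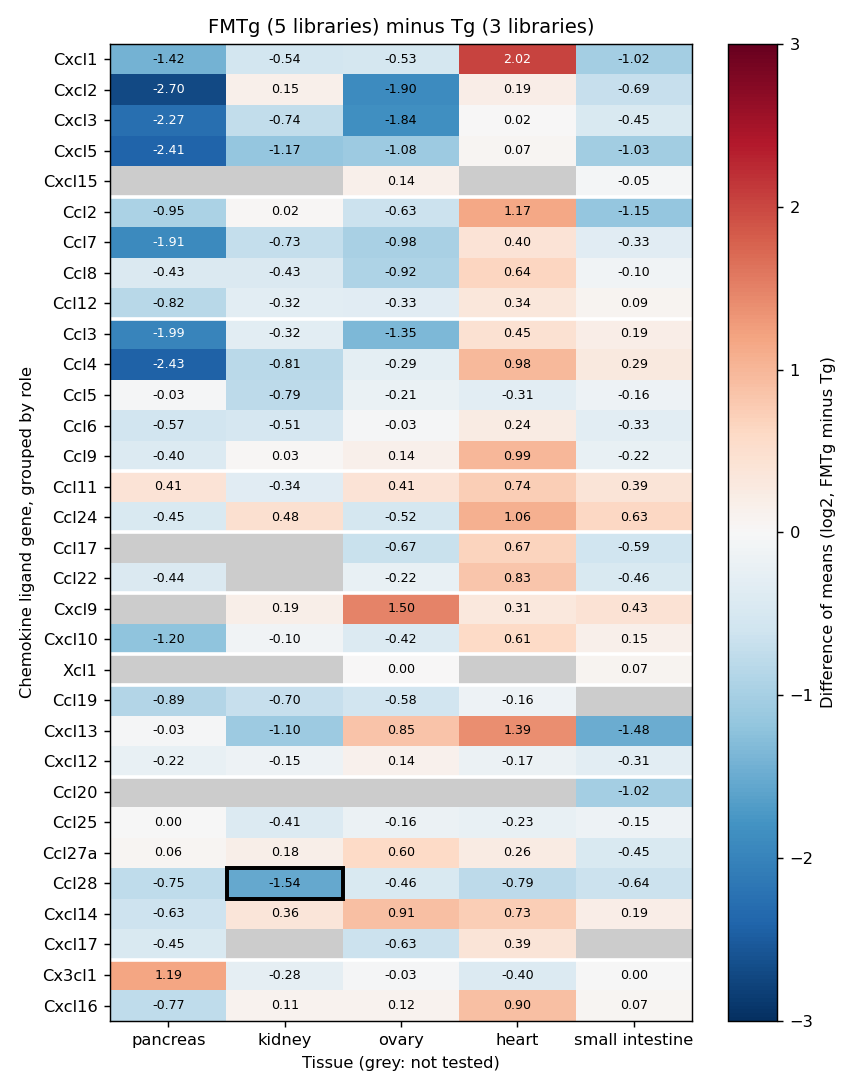
Difference of mean deposited values, FMTg (5 libraries) minus Tg (3 libraries), on the log2 scale (colour and number) for 32 chemokine ligand genes (rows, grouped by role) in 5 tissues (columns); grey cells were too low to test and the black frame marks an adjusted p below 0.05. Ccl28 in the kidney (-1.54) is the only framed cell, most pancreas cells are negative and most heart cells positive.

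Among groups of ligands by role, the 4 tested neutrophil attractants had medians of -2.34 in the pancreas, -0.64 in the kidney and 0.13 in the heart, and the 5 tested had -1.08 in the ovary and -0.69 in the small intestine, with 0 called in any tissue. The same medians without FMTg replicates 4 and 5 were -0.97 for pancreas, -0.52 for kidney, 0.89 for heart, -1.61 for ovary and -0.16 for small intestine. The 4 monocyte ligands had 4 lower means in the pancreas and ovary and 4 higher means in the heart (medians -0.88, -0.78 and 0.52), again with 0 called. These medians without FMTg replicates 4 and 5 were -0.39, with 3 of 4 lower, -1.14 and 0.98. Cx3cl1 differed by between -0.40 and 1.19 in the 5 tissues, Cxcl16 by between -0.77 and 0.90, and Cxcl12 by between -0.31 and 0.14, none called. The epithelial ligands held the 1 call, Ccl28 in the kidney, among 4 tested there.

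The partners of the ligands gave no calls. Of 19 chemokine receptor genes listed, between 11 (kidney) and 16 (small intestine) were tested, and 0 were called in any tissue. The same held for 5 atypical receptors, most of which take up chemokines without signalling to migration. Of 14 genes of the NF-kB pathway and inflammatory cytokines and 13 genes of the interferon response, 0 were called in any tissue. Among all genes tested, 0.446% were called in pancreas, 0.616% in kidney, 0.0190% in heart and 0.00% in ovary and small intestine. Counts of 0 therefore do not show that these genes were unchanged. The NF-kB medians were -0.51 in pancreas (14 of 14 lower) and 0.28 in heart (11 of 14 higher). In kidney, ovary and small intestine they were -0.28, -0.14 and -0.06. The interferon medians ran from -0.19 in kidney to 0.22 in heart. The median receptor difference was 0.49 in the heart, -0.14 in the ovary, -0.34 in the kidney, -0.47 in the small intestine and -0.59 in the pancreas. The platelet chemokines Pf4 and Ppbp, whose symbols fall outside the rule, were tested in all 5 tissues and not called.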

How the data were processed

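RNA of 40 tissue samples was sequenced, with STAR 2.6.0b, DESeq2 and GRCm38 named in the submitters' processing notes; counter, annotation and strand setting are not given in the sources used here. The unit the authors deposited is log2 after variance stabilisation, transformed over all libraries together. Inverting that scale gave whole reads for 100% of values (tolerance 0.01), with library totals of 7.155 to 29.03 M reads. Because the deposited unit is log2, limma 3.58.1 (R 4.3.3, mean-variance trend) was run on the deposited values, per tissue, over genes with a mean at least 1 above the lowest value of 1.65; p-values were adjusted by Benjamini-Hochberg over all genes tested. Over all tissues, the 40-library model held a random block for the mouse (statmod 1.5.0, correlation 0.249). Differences are FMTg minus Tg with the standard error; low genes are compressed. Exact permutation tests were two-sided. The procedure was tested on reads drawn with known changes. Positions and exon lengths are from GENCODE M21 on GRCm38.

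Genes were named by a rule: called members, the 3 highest per kilobase, the 4 smallest genotype p and up to 6 called higher per tissue; libraries that stood apart, and genes named outside the rule, were singled out once their values had been seen. The members and lists were chosen with earlier results of these data known. Tg replicates 1 to 3 are the same mice in every tissue by the labels (correlations of their deviations from -0.20 to 0.44); Tg and FMTg with the same number are different mice.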

Additional observations from a re-analysis of the deposited data

Results flagged for a closer look

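Cxcl1 in FMTg small intestine replicate 5 was listed at 0 normalised reads, against 7.35 to 13.7 in the other 4 FMTg libraries of that tissue. Its gap to the next library was 0.773 of the whole range, above the critical value of 0.71 for 5 samples. This was 1 of 20 groups of 5 libraries looked at, and chance marks about 1 in 20.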

How the results depend on the processing

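The count of chemokine genes called between FMTg and Tg stayed 0 in the ovary, heart and small intestine and on the mean over tissues under every alternative run. In the pancreas it was 1 in 1 model of all 40 libraries (Ccl4, -2.47, adjusted p = 0.0491) and otherwise 0. In the kidney the 1 call (Ccl28) became 0 with voom on the recovered reads, no filter on low values, no mean-variance trend, without FMTg replicates 4 and 5, with only mice that gave an ovary library, in 1 model of all 40 libraries and with total reads as the scale, and ranged from 0 to 1 with each library left out; its difference stayed between -1.85 and -1.25 in those and its adjusted p ran from 0.018 to 1.00 over all alternatives. With the replicate block the kidney count was 1 and the paired level counts were 18, 17, 8, 11 and 16 for pancreas, kidney, ovary, heart and small intestine, so the block changed no other call count by over 1.5 times. The same-number correlations between Tg and FMTg ran from -0.587 to 0.592 and do not pair those mice. Ccl11 in the small intestine reversed to -0.0928 with library weights. Level calls against each other tissue separately were 10 for pancreas, 3 for kidney and small intestine and 1 for ovary and heart, a stricter rule by construction. The share of all genes called under that rule is not reported here. The ovary count of 8 was 2 over FMTg libraries and 4 to 6 with a mouse left out; the heart count of 11 was 7 with total reads as the scale. That scaling was chosen after seeing the data. The cause of these changes was not tested. Genes with few reads, such as Ccl17, Ccl19, Ccl20, Cxcl15 and Xcl1 outside the gut, could not show small differences at this depth.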
